A study of Mus musculus with 18 samples.

Results

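The mitochondrial ribosomal protein genes were followed through small-intestinal crypts of mice in which Myc, the E2f1-3 genes or both had been deleted. Members were the genes whose symbol reads Mrpl or Mrps, a number and at most 1 further letter, on probe sets annotated with a single symbol. The rule found 76 genes among the 18193 genes measured, and where a gene had several probe sets the one of highest mean log2 signal over the 18 arrays was used. Of these, 26 encode proteins of the small subunit of the mitochondrial ribosome and 49 encode proteins of the large subunit, among them Mrps18a and Mrps30, which bear small-subunit names. The last, Mrps36, bears a ribosomal name but encodes a component of the alpha-ketoglutarate dehydrogenase complex. A further 4 probe sets that name a mitochondrial ribosomal protein together with another gene were left out.

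Mitochondria keep their own ribosomes, which translate the few mitochondrially encoded subunits of the respiratory chain and of ATP synthase. Their ribosomal RNAs come from mitochondrial DNA, but every one of their proteins is encoded in the nucleus, made in the cytosol and imported. Some of these proteins have a counterpart in bacterial ribosomes and others arose within mitochondria. Myc is a transcription factor that binds DNA with its partner Max at the E-box and raises genes of growth and of ribosome production, and E2f1, E2f2 and E2f3 are transcription factors of the cell cycle. Crypts hold the dividing progenitors of the intestinal lining.

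Mice were 2 months old and crypts were taken 2 days after deletion by Ah-cre, a Cre transgene driven by the inducible Cyp1a1 promoter and described by the submitters as specific to the intestine. The groups are E2f TKO (deletion of E2f1-3, 5 arrays), Myc KO (deletion of Myc, 4 arrays), E2f/Myc QKO (deletion of both, 5 arrays, here QKO) and control (4 arrays). The labels do not describe the alleles or the genotype of the control mice, nor whether they carried the Cre transgene or received the inducer. They do not say whether each array came from a separate mouse, so p-values measure only the spread between these samples, which may in part be technical. In bulk crypts, a change in the share of cells that carry an RNA and a change of that RNA within cells cannot be told apart.

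Values are log2 signals, so that a difference of -1 would be a halving, and an array has no read depth: the number of arrays limits the precision. Myc signal followed the labels, at 9.99 to 10.66 in E2f TKO, 8.11 to 8.40 in Myc KO, 7.94 to 8.52 in QKO and 9.69 to 10.30 in control arrays. The arrays labelled E2f TKO 2 and E2f TKO 5 went against their label. Their E2f3 signals of 9.35 and 9.10 lay above every control array (8.62 to 8.96), whereas the other E2f TKO arrays had 8.08 to 8.39. Their Cyp1a1 signals, the response to the inducer of Ah-cre, were 5.05 and 4.91, whereas the other 16 arrays had 12.66 to 14.09. The control arrays, at 12.66 to 13.80, were among the high arrays. The tests that use E2f TKO are therefore given with and without these 2 arrays for the counts and for the members described. E2f1 and E2f2 did not follow the labels: their probe sets had differences from control of -0.24 and -0.15 in E2f TKO and of 0.18 and 0.15 in QKO, with overlapping groups and none past the test described below. E2f3 was -0.64 from control in QKO (limma adjusted p = 0.0192). The crypt marker Epcam averaged 13.98 in E2f TKO, 14.16 in Myc KO, 14.01 in QKO and 14.10 in control. The labels give no sex. Xist signals were 12.02 to 13.40 on control 3, E2f TKO 1 and 4, and QKO 4 and 5. They were 6.44 to 6.96 on the other arrays, every Myc KO array among them, so the sexes may be unevenly spread over the groups.

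All 76 members had signals above the median of every array. That median runs over all probe sets, whereas each member was read from its probe set of highest mean, so the choice itself favours this outcome. The highest means were those of Mrpl51 (12.09), Mrpl42 (11.97) and Mrpl12 (11.91), and the lowest were those of Mrpl1 (8.32), Mrpl33 (8.97) and Mrps27 (9.35). Signals of different probe sets depend on the probes, so this order is one of signals and not of RNA amounts. Genes were tested with limma, two-sided, in a joint fit of the 18 arrays. The p-values were adjusted by the method of Benjamini and Hochberg for 18193 tests, and "rose" and "fell" are used below for an adjusted p under 0.05. Across 7 comparisons, 37 members passed in at least 1 and 39 passed in none.

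The mean over the 76 genes was set against the mean of the control arrays on each array. It stood at -0.37, -0.05, -0.08, 0.07 and 0.02 in E2f TKO 1 to 5. It stood at -0.27, -0.24, -0.18 and -0.13 in Myc KO, and at -0.26, -0.35, -0.20, -0.16 and -0.16 in QKO. The control arrays ranged from -0.08 to 0.08. All 4 Myc KO and all 5 QKO arrays were thus below all 4 control arrays, whereas the E2f TKO arrays overlapped them. Measures of the arrays themselves moved with the groups. The actin control probes, whose 3′ minus 5′ signal grows as RNA degrades, gave 0.26 to 0.78 on E2f TKO, 0.18 to 0.22 on Myc KO, 0.19 to 0.31 on QKO and 0.31 to 0.44 on control arrays. The median over all probe sets was 6.14 to 6.19 on E2f TKO, 6.22 to 6.26 on Myc KO, 6.23 to 6.26 on QKO and 6.15 to 6.16 on control arrays, so every Myc KO and QKO array stood above every control array. The part of RNA quality in the members' differences was not tested, and the effect of scaling is given with the counts. E2f TKO 1 was the lowest array of all, and it also had the highest mean of 13 enterocyte markers (1.00 above control) and of 11 T cell markers (1.24 above control). The part of these cells in its values was not tested.

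**Figure D1:**
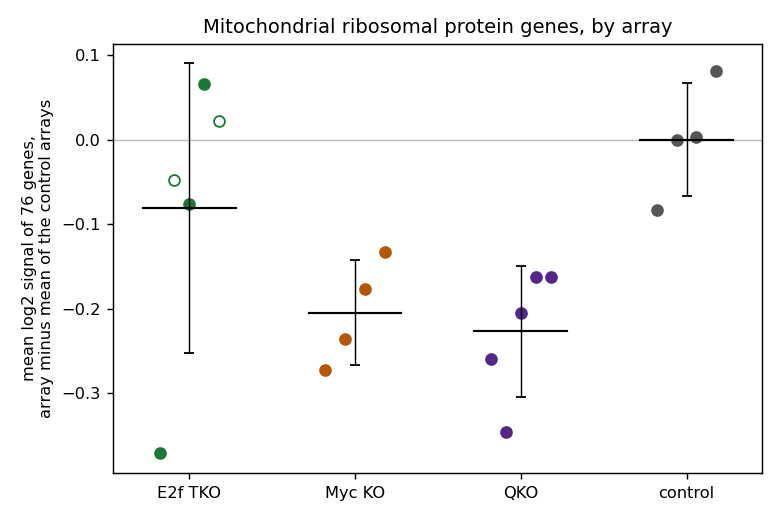
Mean log2 signal of the 76 mitochondrial ribosomal protein genes on each array, minus the mean of the control arrays, for E2f TKO, Myc KO, QKO and control. Each point is an array, hollow points are E2f TKO 2 and 5, and bars give the group mean ± SD; the Myc KO points (-0.27 to -0.13) and the QKO points (-0.35 to -0.16) lie below the control points (-0.08 to 0.08).

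In Myc KO crypts, 12 members fell and 0 rose. All 12 are subunits of the ribosome, 9 of the large and 3 of the small subunit, and the size of the fall ran from -0.72 for Mrpl19 to -0.27 for Mrpl16. That is 15.8% of the members, beside 4.72% of all genes lower and 3.59% of all genes higher. Among the 6312 genes whose mean signal lay within the range of the members' means, a range set after the values were seen, 7.87% were lower and 3.09% higher. The median difference of the members was -0.19, against 0.02 over all genes and -0.03 over genes in their signal range. Of the 76 members, 69 had a difference below 0 (90.8%), against 46% of all genes.

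Mrpl19, a large-subunit protein whose bacterial counterpart lies where the ribosomal subunits meet, had log2 signals of 9.44, 9.49, 9.54 and 9.57 in Myc KO, against 10.06, 10.17, 10.29 and 10.38 in control. The groups were apart by more than the spread of either. It averaged 9.51 ± 0.06 in Myc KO and 10.23 ± 0.14 in control (SD, n = 4 each), a difference of -0.72 (SE 0.13, limma adjusted p = 0.00398), or 0.608 times the control signal.

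Mrpl36, a small zinc-binding protein of the large subunit, had 10.10, 9.93, 10.16 and 10.24 in Myc KO, against 10.68, 10.73, 10.77 and 10.80 in control, again with no overlap. The difference was -0.64 (SE 0.12, limma adjusted p = 0.0043). Mrps9, a small-subunit protein with a bacterial counterpart, had 8.96, 9.13, 9.22 and 9.38 in Myc KO and 9.70, 9.92, 9.73 and 10.09 in control. Its difference was -0.69 (SE 0.15, limma adjusted p = 0.00929).

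The small-subunit protein Mrps5, whose bacterial counterpart bears on the accuracy of decoding, had 9.28, 9.52, 9.46 and 9.56 in Myc KO and 9.78, 9.92, 9.95 and 10.02 in control (-0.46, SE 0.11, limma adjusted p = 0.018). Mrpl54, a large-subunit protein found only in mitochondria, had 9.25, 9.50, 9.36 and 9.45 in Myc KO and 9.81, 9.82, 9.87 and 9.90 in control (-0.46, SE 0.10, limma adjusted p = 0.00947). In neither gene did the groups overlap.

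The other 7 members that fell in Myc KO did so by smaller amounts. Mrpl23 and Mrpl24, whose bacterial counterparts stand at the exit of the peptide tunnel, had differences of -0.45 and -0.30. Mrpl12, of the stalk that recruits translation factors, had -0.29. Mrpl52 had -0.35, Mrpl48 -0.31, Mrps15 -0.30 and Mrpl16 -0.27, with limma adjusted p from 0.0218 to 0.0392 over these 7 genes. Groups did not overlap, with every Myc KO array the lower, in 38 members, beside 11.8% of all genes.

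Genes of both subunits had medians below 0. In Myc KO against control the median was -0.22 over 26 small-subunit genes, 24 of them below 0, and -0.18 over 49 large-subunit genes, 45 of them below 0. Of the genes with a bacterial counterpart 9 of 44 fell (median -0.20), and of the mitochondria-specific genes 3 of 31 fell (median -0.18). The exceptions with a difference above 0, none of them past the test, were Mrps18c and Mrps24 in the small subunit and Mrpl14, Mrpl22, Mrpl27 and Mrpl39 in the large subunit. Mrps36, the member outside the ribosome, had 0.21 (SE 0.12, limma adjusted p = 0.281).

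How many members passed in Myc KO depended on single arrays and on scaling. Of the 12 calls, those of Mrpl19 and Mrpl36 held under all 29 other settings, those of Mrps9 and Mrpl54 were lost only when a gene's probe sets were averaged, and that of Mrps5 was lost there and without control 4 or Myc KO 1. The other 7 were each lost without control 3, control 4, Myc KO 1 or Myc KO 2. The count was 6 without control 2 or control 3, 4 without control 4, 4, 5 and 7 without Myc KO 1, 2 and 3, and 27 without E2f TKO 1, which enters through the shared estimate of spread. Without both E2f TKO 2 and 5 it was 15 lower and 0 higher, beside 5.78% and 4.61% of all genes. With quantile normalization 5 were lower and 1 higher, and the median of the members was -0.12 in place of -0.19. With each array centred on its median it was -0.27.

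In QKO crypts, 29 members fell and 2 rose. The falls were in 8 small-subunit and 21 large-subunit genes and ran from -0.87 for Mrps9 to -0.21 for Mrpl58. This is 38.2% of members lower, beside 12.6% of all genes lower and 14.3% higher. Among genes in the members' signal range 22.5% were lower and 12.5% higher, so the range itself holds more lower calls than the array as a whole. The median of the members was -0.18, against 0.03 over all genes and -0.07 in that range, and the median of the members was -0.07 with quantile normalization and -0.27 with each array centred on its median. QKO and Myc KO were set against the same 4 control arrays, so the 2 comparisons are not independent of each other.

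Mrps9 had 9.11, 8.80, 8.79, 9.08 and 9.18 in QKO, all below the control values given above, with a mean of 8.99 ± 0.18 in QKO (n = 5) and 9.86 ± 0.18 in control (SD, n = 4). The difference was -0.87 (SE 0.14, limma adjusted p = 0.00026), or 0.548 times the control signal. Mrpl19 had 9.33, 9.36, 9.59, 9.76 and 9.71 in QKO (-0.68 against control, SE 0.13, limma adjusted p = 0.00087). Mrpl36 had 10.10, 9.89, 10.05, 10.25 and 10.23 in QKO (-0.64 against control, SE 0.11, limma adjusted p = 0.000555). In both genes the QKO arrays stood about where the Myc KO arrays did, and all were below the control arrays.

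Other small-subunit genes were among the largest falls in QKO. Mrps10, with a bacterial counterpart, had 9.81, 9.78, 9.88, 9.96 and 9.99 in QKO, against 10.71, 10.58, 10.30 and 10.87 in control. Its difference was -0.73 in QKO (SE 0.12, limma adjusted p = 0.000257), beside -0.38 in E2f TKO and -0.36 in Myc KO, which did not pass (limma adjusted p = 0.109 and 0.079; in E2f TKO -0.36 and 0.130 without arrays 2 and 5). Mrps26, a mitochondria-specific protein, had 9.59, 9.54, 9.69, 9.71 and 9.93 in QKO, against 10.30, 10.35, 10.39 and 10.50 in control (-0.69, SE 0.10, limma adjusted p = 0.000108). Both genes were lower than control on all 5 QKO arrays with no overlap.

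Mrps28, a small-subunit protein, had 9.98, 9.79, 9.99, 10.11 and 10.10 in QKO, against 10.50, 10.62, 10.70 and 10.66 in control (-0.63, SE 0.14, limma adjusted p = 0.00398). The remaining genes among the 10 largest falls in QKO were Mrpl23 (-0.61), Mrps30 (-0.57), Mrpl24 (-0.56) and Mrps22 (-0.54). Mrps30 is a large-subunit protein despite its name, and Mrps22 is a mitochondria-specific protein of the small subunit in which mutations cause mitochondrial disease in humans. Mrpl24 had 11.12, 11.19, 11.23, 11.17 and 11.11 in QKO, against 11.60, 11.83, 11.70 and 11.76 in control, a difference with the smallest adjusted p of any member (limma adjusted p = 8.62e-05).

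The 2 members that rose in QKO are both in the large subunit. Mrpl14, which in human mitochondria is bound by the assembly factor MALSU1, had 11.22, 11.15, 11.20, 11.27 and 11.25 in QKO, against 11.01, 11.06, 10.82 and 11.09 in control (0.22, SE 0.07, limma adjusted p = 0.0216). Mrpl46, a mitochondria-specific protein, had 10.83, 10.81, 10.90, 11.01 and 10.96 in QKO, against 10.56, 10.58, 10.70 and 10.74 in control (0.26, SE 0.08, limma adjusted p = 0.0303). In both genes every QKO array was above every control array. In the small subunit, only Mrps7, Mrps25 and Mrps34 had a QKO difference above 0, and none of these passed.

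Groups did not overlap in QKO in 38 members that were lower, beside 13% of all genes, and in 2 that were higher, beside 13.2%. Of the 31 calls in QKO, 18 held under all 29 other settings, among them Mrps9, Mrps10, Mrps26, Mrps28, Mrpl19, Mrpl23, Mrpl24 and Mrpl36. The count of members that passed stayed between 24, with quantile normalization, and 44, with each array centred on its median. Without E2f TKO 2 and 5 it was 31 lower and 2 higher, beside 13.9% and 15.9% of all genes.

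**Figure D2:**
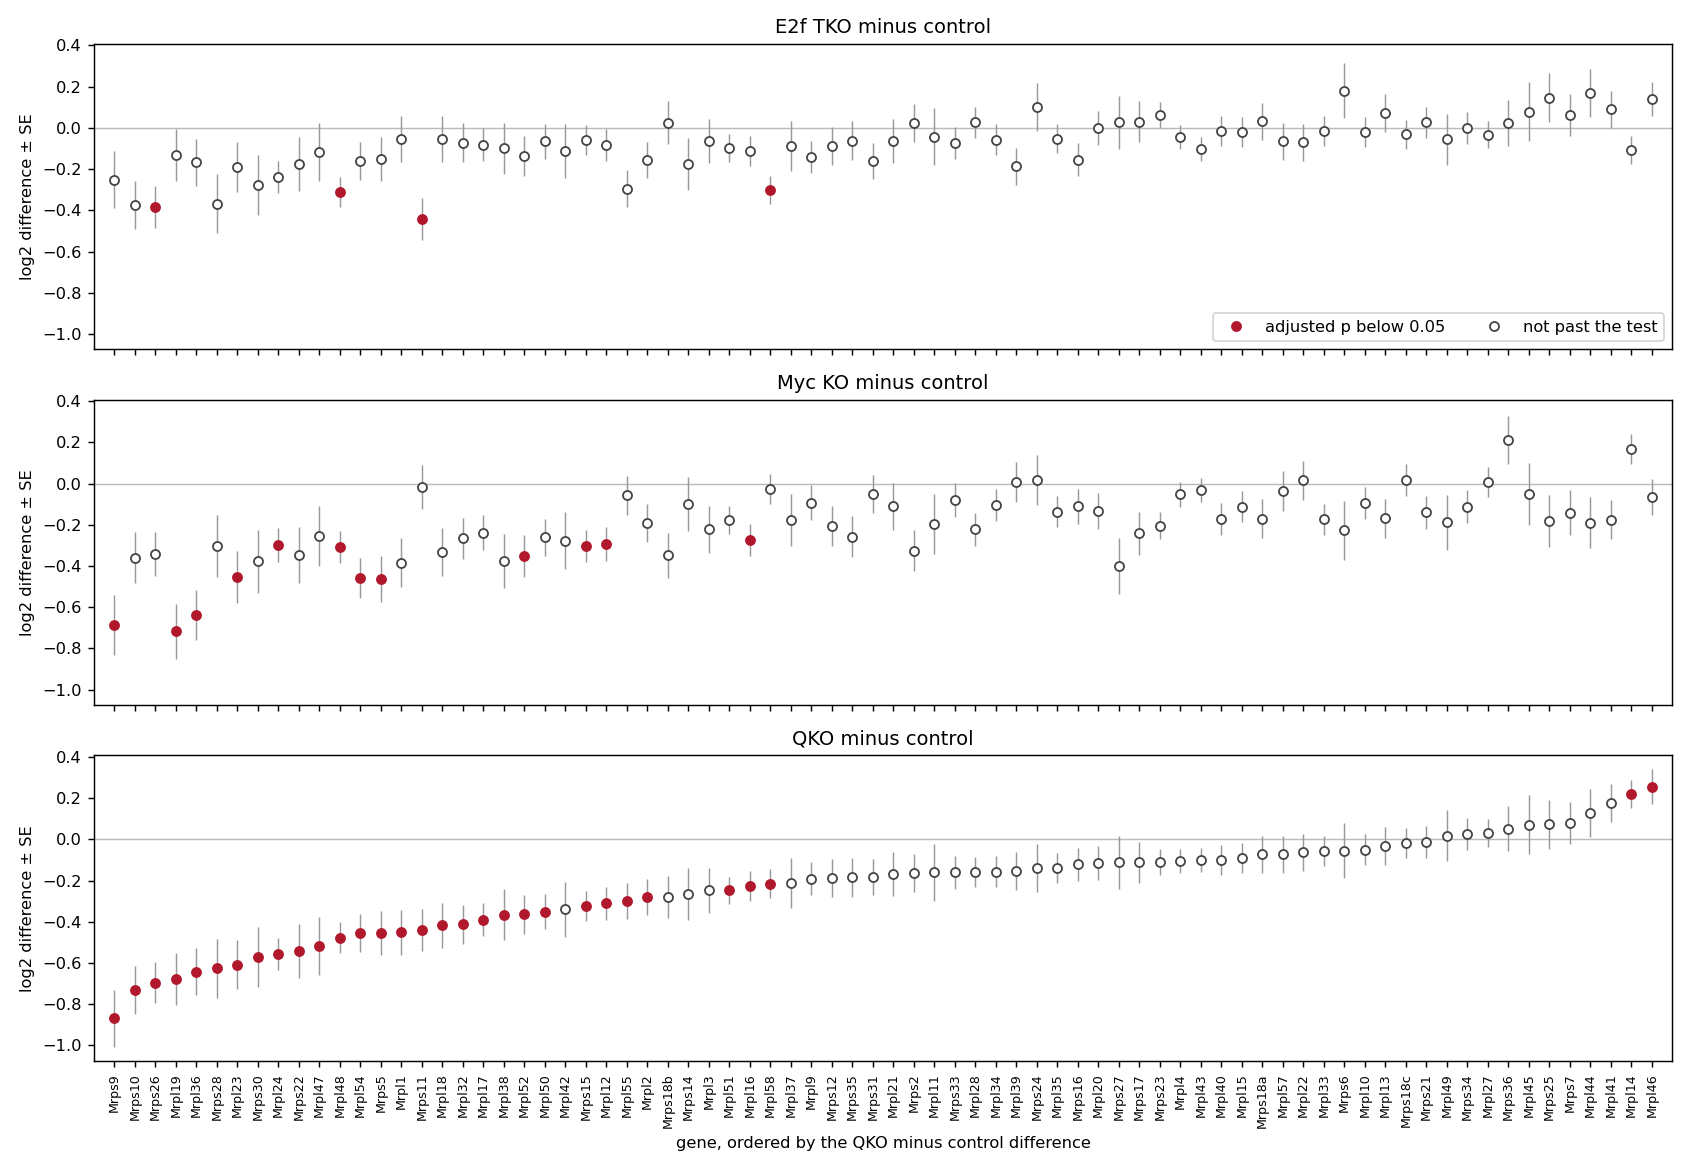
Difference in log2 signal from control for each of the 76 genes in E2f TKO, Myc KO and QKO, in 3 panels, with genes in the order of their QKO difference. Points are limma estimates, bars are ± SE and red points have an adjusted p below 0.05; 4 points are red in E2f TKO, 12 in Myc KO and 31 in QKO.

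In E2f TKO crypts, 4 members fell and 0 rose: Mrps11, Mrps26, Mrpl48 and Mrpl58. This is 5.26% of the members, beside 1.22% of all genes lower and 1.68% higher, and beside 1.79% lower and 2.03% higher in the members' signal range. The median of the members was -0.07, against a median within 0.01 of 0 over all genes. Every E2f TKO array was below every control array in 5 members and above it in 0, beside 2.54% and 2.89% of all genes, and 57 members had a difference below 0, beside 51.4%. Without E2f TKO 2 and 5 the count was 10 lower and 0 higher, beside 3.92% and 3.35% of all genes, and the 4 genes named were among the 10. The median of the members was then -0.12, and 57 members were below 0, beside 50% of all genes. The 4 calls leaned on few arrays: the count was 0 without control 2 or control 4, 1 without control 3 or E2f TKO 3, and 2 without E2f TKO 4.

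Mrps11, a small-subunit protein with a bacterial counterpart, had 9.45, 9.49, 9.70, 9.92 and 9.79 in E2f TKO, against 10.15, 10.18, 10.05 and 10.07 in control. All 5 E2f TKO arrays were below all 4 control arrays. The difference was -0.44 (SE 0.10, limma adjusted p = 0.0225), and -0.42 (limma adjusted p = 0.0349) without E2f TKO 2 and 5. In Myc KO the same gene had 10.06, 10.15, 10.22 and 9.94, a difference of -0.02 from control (95% interval -0.24 to 0.21).

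Mrpl58 releases peptides from stalled mitochondrial ribosomes and is itself part of the large subunit. It had 10.36, 10.55, 10.50, 10.61 and 10.71 in E2f TKO, against 10.75, 10.86, 10.93 and 10.85 in control (-0.30, SE 0.07, limma adjusted p = 0.0222). The difference was -0.36 (limma adjusted p = 0.00742) without E2f TKO 2 and 5. In Myc KO it had 10.76, 10.85, 10.81 and 10.87, a difference of -0.03 from control (95% interval -0.18 to 0.13). Mrps11 and Mrpl58 were thus low on all E2f TKO arrays and within the control range or close to it on Myc KO arrays. The low arrays include E2f TKO 2 and 5, whose E2f3 and Cyp1a1 signals went against their label. How far the deletion bears on these low signals was not tested.

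Mrpl48, a mitochondria-specific large-subunit protein, passed in each of the 3 comparisons with control, which share the control arrays. It had 10.29, 10.56, 10.43, 10.54 and 10.68 in E2f TKO, 10.43, 10.51, 10.55 and 10.52 in Myc KO, and 10.33, 10.16, 10.35, 10.40 and 10.42 in QKO, against 10.73, 10.85, 10.84 and 10.83 in control. No array of any of these genotypes reached the control range, and this includes E2f TKO 2 and 5, which went against their label. The differences were -0.31 in E2f TKO, -0.31 in Myc KO and -0.48 in QKO (limma adjusted p = 0.0292, 0.023 and 0.000211), and in E2f TKO -0.39 (limma adjusted p = 0.00555) without arrays 2 and 5. Mrps26 had -0.38 in E2f TKO (SE 0.10, limma adjusted p = 0.048), and this call was lost in 20 of 29 other settings. It had -0.44 (limma adjusted p = 0.0241) without E2f TKO 2 and 5.

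**Figure D3:**
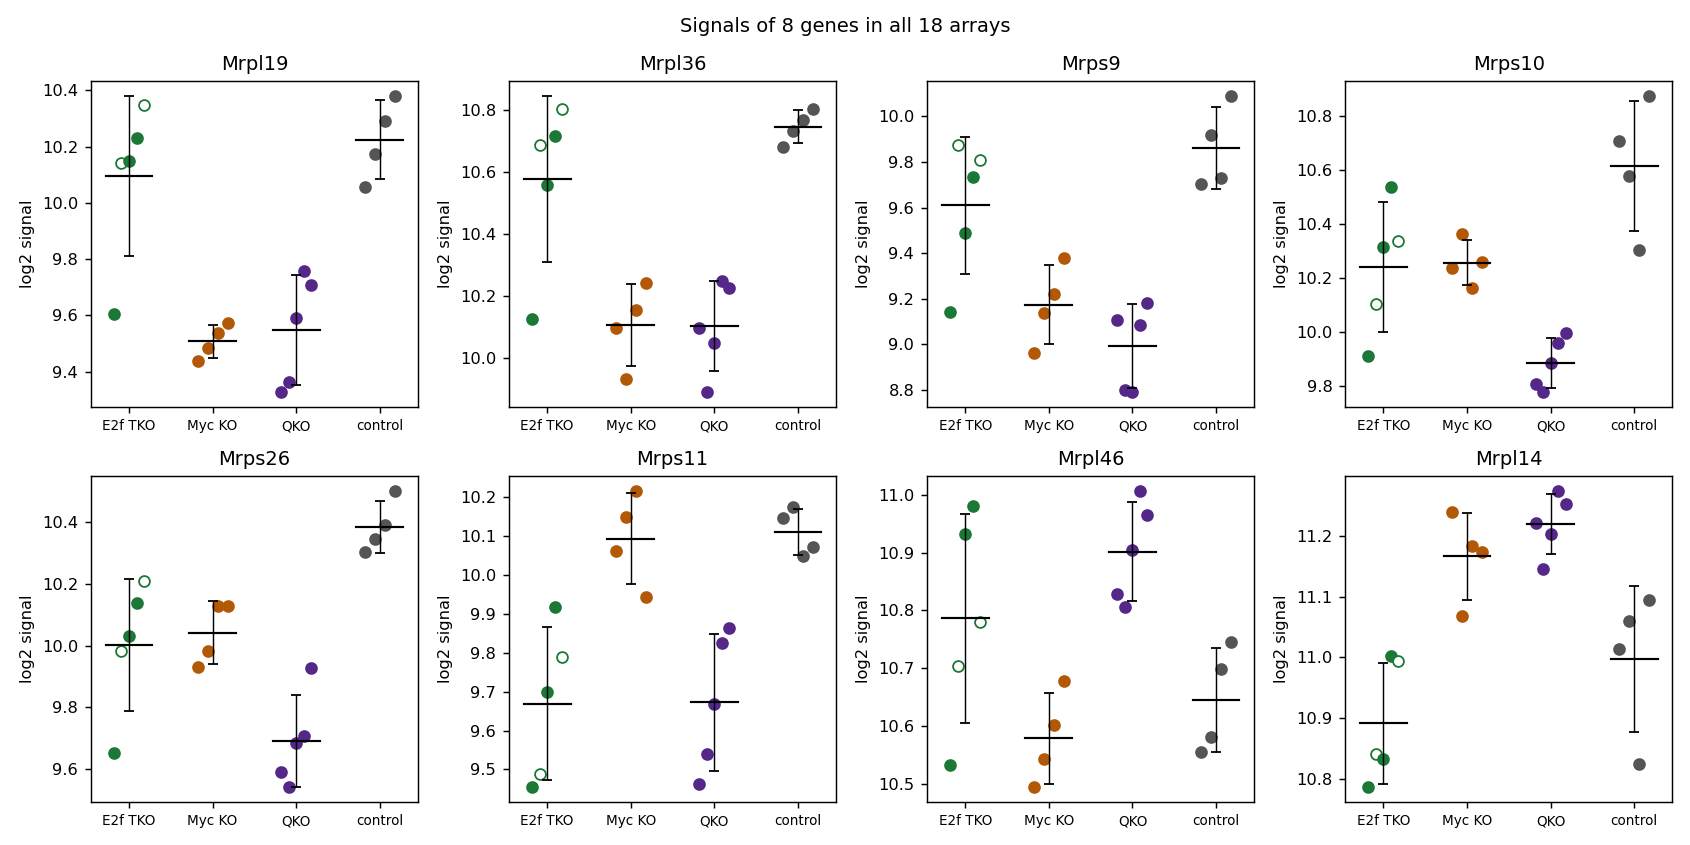
Log2 signals of Mrpl19, Mrpl36, Mrps9, Mrps10, Mrps26, Mrps11, Mrpl46 and Mrpl14 on the 18 arrays, by genotype in the order E2f TKO, Myc KO, QKO and control. Points are arrays, hollow points are E2f TKO 2 and 5, and bars are group means ± SD; Mrps11 is low in E2f TKO (9.67 ± 0.20) and QKO (9.67 ± 0.17) and not in Myc KO (10.09 ± 0.12) or control (10.11 ± 0.06).

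The genotypes were also set against each other, which tests their differences directly. In Myc KO against E2f TKO, 10 members were lower (13.2%) and 3 higher (3.95%). Of all genes 7.87% were lower and 6.16% higher, and in the members' signal range 12.9% and 7.34%. The members' share lower was thus near that of the signal range, and their share higher was below both. Mrpl19 (-0.59, limma adjusted p = 0.00519), Mrpl36 (-0.47, limma adjusted p = 0.0106) and Mrps9 (-0.43, limma adjusted p = 0.0449) were the 3 lowest. Mrps11 was higher in Myc KO than in E2f TKO by 0.42 (limma adjusted p = 0.0102), and Mrpl14 and Mrpl58 were each higher by 0.28 (limma adjusted p = 0.0119 and 0.0133). Without E2f TKO 2 and 5, 2 members were lower (2.63%), Mrpl19 among them, beside 6.32% of all genes. The 4 that were higher (5.26%, beside 6.18% of all genes) included Mrps11, Mrpl14 and Mrpl58. Both shares were below those of all genes. Mrpl19 then had -0.49 (limma adjusted p = 0.0312), while Mrpl36 (-0.36, limma adjusted p = 0.0651) and Mrps9 (-0.28, limma adjusted p = 0.231) did not pass. The count of 13 was 36 without E2f TKO 1, 8 and 6 without E2f TKO 3 and 4, and 6, 7 and 8 without Myc KO 1, 2 and 3.

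In QKO against E2f TKO, 19 members were lower (25%) and 1 higher (1.32%). Of all genes 7.95% were lower and 9.09% higher, and in the members' signal range 15% and 8.19%. The lowest were Mrps9 (-0.62, SE 0.13, limma adjusted p = 0.00449), Mrpl19 (-0.55, SE 0.12, limma adjusted p = 0.00536) and Mrpl36 (-0.47, SE 0.11, limma adjusted p = 0.00642). They were followed by Mrpl23 (-0.42), Mrpl47 (-0.40), Mrpl1 (-0.40), Mrps22 (-0.37), Mrpl18 (-0.36), Mrps10 (-0.36) and Mrpl32 (-0.34). The 1 higher member was Mrpl14, which had 10.79, 10.84, 10.83, 11.00 and 10.99 in E2f TKO, all below its QKO values, a difference of 0.33 (SE 0.06, limma adjusted p = 0.0025). Without E2f TKO 2 and 5, 3 members were lower (3.95%, beside 5.29% of all genes), among them Mrps9 and Mrpl19. Mrpl14 was again the 1 higher (1.32%, beside 6.56% of all genes). Both shares were then below those of all genes. Mrps9 then had -0.46, Mrpl19 -0.45 and Mrpl14 0.35, while Mrpl36 (-0.36, limma adjusted p = 0.0534), Mrpl23 (-0.21, limma adjusted p = 0.113) and Mrps10 (-0.37, limma adjusted p = 0.0761) did not pass. The count of 20 was 36 without E2f TKO 1, between 11 and 13 without any other single E2f TKO array, 12 without QKO 1 and 10 without QKO 2.

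In QKO against Myc KO, 2 members were lower and 2 higher, beside 3.09% of all genes lower and 4.6% higher, and 5.96% and 5.62% in the members' signal range, so the share of the members was no larger than that of all genes. Mrps11 (-0.42, limma adjusted p = 0.016) and Mrps26 (-0.35, limma adjusted p = 0.0402) were lower, and both also fell in E2f TKO against control. The higher pair were Mrpl41 (0.35, limma adjusted p = 0.0224) and Mrpl46 (0.32, limma adjusted p = 0.0237), mitochondria-specific proteins of the large subunit. Mrpl41 had 10.60, 10.82, 10.76, 10.88 and 10.79 in QKO and 10.37, 10.38, 10.44 and 10.49 in Myc KO, without overlap. The count of 4 was 8 without E2f TKO 1, 2 without QKO 2, 1 without QKO 4, Myc KO 1 or Myc KO 2, and 0 without Myc KO 3. Without both E2f TKO 2 and 5, which enter through the estimate of spread, 3 were lower and 2 higher, beside 4.25% and 5.5% of all genes.

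The interaction asks whether the QKO difference departs from the sum of the E2f TKO and the Myc KO differences. With limma 0 members passed it, 0 had an unadjusted p under 0.05, and the median of the members was 0.05. Over all genes 0.0165% were lower and 0.0385% higher, and 6.34% had an unadjusted p under 0.05. For Mrps10 the departure was 0.00 (SE 0.16), for Mrps26 0.03 (SE 0.14) and for Mrps9 0.07 (SE 0.20). Without E2f TKO 2 and 5, 0 members passed with limma, 2 had an unadjusted p under 0.05 and the median was 0.09. These errors are of the size of many members' single differences, so a departure of that size was not detectable here.

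Probes of 1 gene did not always move together. Of the 76 members, 42 had more than 1 probe set, 122 in all. In these 42 members the probe sets differed in sign in 19 for E2f TKO, 23 for Myc KO and 24 for QKO against control, and all of a gene's probe sets were below 0 in 17, 19 and 15 members. Probe sets that passed in opposite directions were found in Mrps9, Mrps11 and Mrpl48. The second probe set of Mrpl19 also fell, by -0.51 in Myc KO and -0.43 in QKO. Mrps9 had another probe set that rose, by 0.46 in Myc KO and 0.45 in QKO (limma adjusted p = 0.0346 and 0.0135, over all probe sets), while 1 more in Myc KO and 2 more in QKO fell with the one used. Mrps11 had a dimmer probe set that rose in QKO by 0.39 (limma adjusted p = 0.0257, over all probe sets), whereas the one used fell by 0.44. In Mrpl48, QKO against E2f TKO was -0.35 in 1 probe set and 0.20 in another (limma adjusted p = 0.00913 and 0.0419, over all probe sets), neither of them the one used. For these genes the direction holds for the probe set named and not for every transcript the array reads.

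Mrps11 and Mrpl46 lie head to head on chromosome 7, with start sites 42 bases apart. On the probe sets used they moved in opposite directions in QKO, at -0.44 and 0.26 from control. The dimmer probe set of Mrps11 rose in QKO, so the contrast does not hold for every probe set. Among the 67 members with a promoter window, described below, 26 have a divergent neighbour that starts within 1000 bases in RefSeq GRCm38.p6. They include Mrpl48, whose starts overlap those of its neighbour Rab6a and are not head to head with them. The share of all genes with a divergent neighbour was not computed. The promoter window of Mrps11, 250 bases before to 50 bases after its start at chr7:78782881-78783180 on the plus strand, is shown because it holds both starts. Capitals run from the start of Mrpl46 to the start of Mrps11.
Mrps11: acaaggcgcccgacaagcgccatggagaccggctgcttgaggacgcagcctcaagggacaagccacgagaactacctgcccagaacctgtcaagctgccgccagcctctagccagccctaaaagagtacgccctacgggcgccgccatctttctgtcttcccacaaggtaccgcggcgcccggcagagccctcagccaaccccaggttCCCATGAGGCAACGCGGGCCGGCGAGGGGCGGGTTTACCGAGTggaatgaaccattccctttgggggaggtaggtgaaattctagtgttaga

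Promoter windows of the same extent were found in the RefSeq table for 67 members. The E-box CACGTG, searched on both strands, was in 5 of them (7.46%), against 8.91% of 17492 protein-coding genes. Of the 10 members with a window that fell in Myc KO, 1 held it, Mrpl36, and of the 57 members with a window that did not pass, 4 held it. All 5 E-boxes are shown in capitals with 20 bases on each side. They lie at chr17:46646070-46646115 (Mrpl2, plus strand), chr4:155802825-155802870 (Mrpl20, plus), chr13:73330946-73330991 (Mrpl36, plus), chr4:107067003-107067048 (Mrpl37, minus) and chr5:100798576-100798621 (Mrps18c, plus).
Mrpl2: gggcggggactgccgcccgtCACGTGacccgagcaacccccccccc
Mrpl20: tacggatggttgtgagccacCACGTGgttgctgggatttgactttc
Mrpl36: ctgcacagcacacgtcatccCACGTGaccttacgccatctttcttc
Mrpl37: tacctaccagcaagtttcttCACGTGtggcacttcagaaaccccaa
Mrps18c: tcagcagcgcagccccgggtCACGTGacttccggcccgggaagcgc

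The motifs of ETS factors and of Nrf1 were in more of the members than the E-box, and the E2F motifs were in fewer. CCGGAAG, the letters bound by ETS factors such as Gabpa, was in 25 of 67 members (37.3%), against 12.9% of protein-coding genes. The motif of the mitochondrial biogenesis factor Nrf1, GCGCA and GCGC with any 1 base between them, was in 12 (17.9%), against 7.17%. The E2F motifs TTTGGCGC and TTTCCCGC were in 1 member each (1.49%), against 0.726% and 1.61%. CCGGAAG was in 2 of the 10 members with a window that fell in Myc KO and in 23 of the 57 that did not pass. For QKO it was in 8 of the 25 that fell (32%), 0 of the 2 that rose and 17 of the 40 that did not pass (42.5%). For E2f TKO it was in 3 of the 4 that fell and 22 of the 63 that did not pass. The members' windows had a median GC content of 58.7%, against 56.3%, and a match describes letters and not binding.

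Mrps26, which fell in E2f TKO and in QKO, holds CCGGAAG just before its start and the Nrf1 motif across and after it. Its window, chr2:130563507-130563806 on the plus strand, is shown with CCGGAAG, on the reverse strand, and a pair of overlapping matches to the Nrf1 motif in capitals.
Mrps26: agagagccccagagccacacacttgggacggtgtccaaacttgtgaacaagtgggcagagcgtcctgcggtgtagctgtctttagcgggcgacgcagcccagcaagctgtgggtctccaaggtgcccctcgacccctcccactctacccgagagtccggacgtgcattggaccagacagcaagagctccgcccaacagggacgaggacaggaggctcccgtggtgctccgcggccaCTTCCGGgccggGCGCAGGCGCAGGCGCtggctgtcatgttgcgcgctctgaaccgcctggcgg

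Other genes of mitochondrial gene expression were described from lists beside the members, with no test of one list against another. Their counts are to be read against the shares of all genes given above, lower in 1.22% for E2f TKO, 4.72% for Myc KO and 12.6% for QKO. Among genes in the members' signal range, which was not set from these lists, the shares lower were 1.79%, 7.87% and 22.5%. Without E2f TKO 2 and 5, the calls in E2f TKO against control were 3 lower among assembly factors, 2 among translation factors, 1 among synthetases, 1 among genes of transcription and DNA maintenance, 0 among import genes, 2 among regulators and 6 among respiratory subunits, beside 3.92% of all genes. The ribosome has subunits with other names, of which 4 were measured, and in both Myc KO and QKO 2 fell and 0 rose. These were the small-subunit proteins Dap3 (-0.29 in Myc KO, -0.36 in QKO) and Ptcd3 (-0.48 in Myc KO, -0.36 in QKO). Gadd45gip1, a large-subunit protein, rose in E2f TKO by 0.95 (SE 0.16, limma adjusted p = 0.00212), and again by 0.95 without arrays 2 and 5 (limma adjusted p = 0.00555). Every E2f TKO array was above every control array, arrays 2 and 5 among them although they went against their label. How far the deletion bears on this difference was not tested.

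Of 30 assembly factors of the mitochondrial ribosome, 1 fell in E2f TKO, 8 in Myc KO and 14 in QKO, and 0 rose in any of them. The falls are 3.33%, 26.7% and 46.7% of the list. Noa1, a GTPase needed for the small subunit, had -0.93 in Myc KO (SE 0.17, limma adjusted p = 0.00319) and -0.79 in QKO (limma adjusted p = 0.00165). Mettl15, which methylates small-subunit RNA, had -0.68 in Myc KO (limma adjusted p = 0.00778). Gtpbp10, a GTPase of large-subunit assembly, had -0.54 in Myc KO and -0.66 in QKO (limma adjusted p = 0.00947 and 0.000329). The list medians were -0.21 in Myc KO and -0.19 in QKO, beside -0.19 and -0.18 for the ribosomal proteins.

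Of 22 translation factors, 1 fell in E2f TKO, 2 in Myc KO and 8 in QKO (4.55%, 9.09% and 36.4%). Those of Myc KO were Qrsl1, a subunit of the amidotransferase that makes glutaminyl-tRNA (-0.48), and Oxa1l, which inserts new proteins into the inner membrane (-0.29). Gatc, of the same amidotransferase, had -0.59 in QKO (limma adjusted p = 1.3e-05). Of 16 mitochondrial aminoacyl-tRNA synthetases, 0 fell in E2f TKO, 5 in Myc KO (31.2%) and 6 in QKO (37.5%), among them Iars2 for isoleucine (-0.63 in Myc KO, -0.76 in QKO) and Yars2 for tyrosine (-0.62 in Myc KO, -0.64 in QKO). No member of either list rose in these comparisons.

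Of 17 genes of mitochondrial transcription and DNA maintenance, 0 fell in E2f TKO, 5 in Myc KO (29.4%) and 7 in QKO (41.2%), and 0 rose. Trmt10c, a subunit of mitochondrial RNase P, had -0.71 in Myc KO and -0.97 in QKO (limma adjusted p = 0.0134 and 0.000242). Polrmt, the mitochondrial RNA polymerase, had -0.38 in Myc KO (limma adjusted p = 0.0335). Of 32 genes of import and chaperones, 8 fell (25%) and 0 rose in Myc KO, and 15 fell (46.9%) and 2 rose in QKO. Timm9, which escorts proteins between the membranes, had -0.90 in Myc KO and -1.17 in QKO (limma adjusted p = 0.000903 and 7.4e-06), and the import receptor Tomm70a had -0.73 and -0.91 in the same order.

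Of 70 nuclear-encoded subunits of the respiratory chain and ATP synthase, 1 fell in E2f TKO, 2 fell and 3 rose in Myc KO, and 6 fell and 9 rose in QKO. In QKO these are 8.57% lower and 12.9% higher, near the 12.6% and 14.3% of all genes. Their medians were 0.03 in Myc KO and 0.01 in QKO, near those of all genes. Ndufc2 (-0.44 in Myc KO) and Ndufb10 (-0.38 in Myc KO, -0.46 in QKO) of complex I were lower, and Ndufv3 of complex I and Sdha of complex II were higher in QKO, each by 0.22. Ndufs5 of complex I fell in E2f TKO, by 1.01 on the log2 scale (limma adjusted p = 7.73e-05), and by 0.99 (limma adjusted p = 0.000509) without arrays 2 and 5. Arrays 2 and 5, which went against their label, thus shared the fall on average, and the part of the deletion was not tested.

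**Figure D4:**
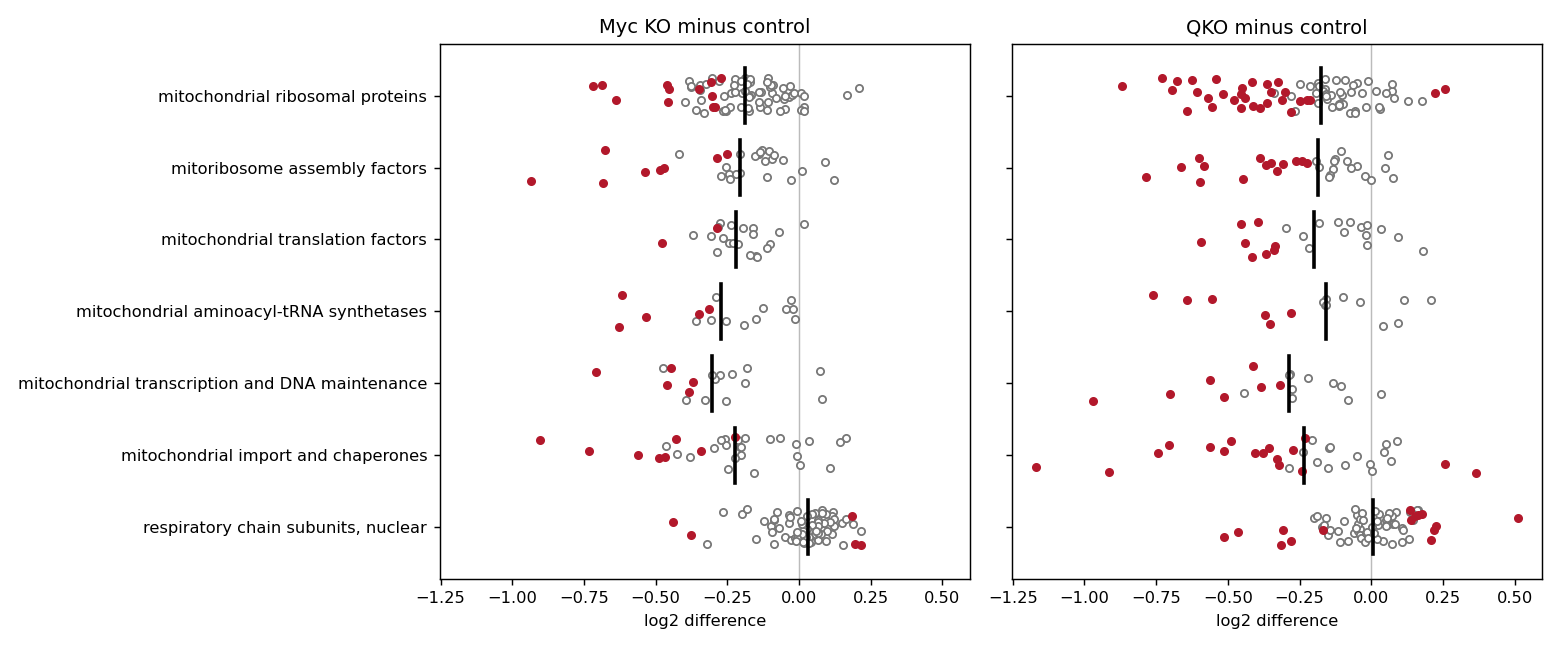
Difference in log2 signal from control in Myc KO and in QKO for the genes of 7 mitochondrial lists. Each point is a gene, red filled points have an adjusted p below 0.05, grey hollow points do not, and black bars are medians, which are -0.21 and -0.19 for assembly factors and 0.03 and 0.01 for respiratory chain subunits.

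Of 11 regulators of mitochondrial biogenesis, 2 fell (18.2%) and 1 rose in Myc KO, and 3 fell (27.3%) and 1 rose in QKO. Gabpa, the ETS factor whose motif is given above, had -0.39 in Myc KO and -0.90 in QKO (limma adjusted p = 0.0257 and 7.96e-06). Yy1, a zinc-finger factor, had -0.40 in Myc KO and -0.67 in QKO (limma adjusted p = 0.013 and 3.77e-05). Ppargc1a, a coactivator of mitochondrial genes, rose in Myc KO by 1.02 (limma adjusted p = 0.0152).

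Markers of cell types were read on the same arrays. In E2f TKO, 0 genes of the 9 lists passed. Without E2f TKO 2 and 5, the B cell marker Cd74 (2.53, limma adjusted p = 0.0154) and the enterocyte marker Apob (1.03, limma adjusted p = 0.0277) rose. Of all genes 3.35% were then higher. In Myc KO, Cdh1 fell (-0.39) and Krt18 rose (0.39) among 12 markers of crypt epithelium, and 0 genes passed in the other 8 lists, which stand for enterocytes, Paneth, goblet, T and B cells, smooth muscle and fibroblasts, endothelium and macrophages. In QKO, 1 crypt marker fell (Cdh1, -0.41) and 2 rose (Krt18 0.71, Lgr5 1.17), and 2 of 9 goblet, 1 of 11 T cell, 3 of 12 smooth muscle and fibroblast and 2 of 7 endothelial markers rose. Set against the control mean, the mean of the crypt markers ranged from -0.33 to 0.33 on E2f TKO, -0.09 to 0.11 on Myc KO, 0.01 to 0.40 on QKO and -0.06 to 0.03 on control arrays. The mean of the endothelial markers ranged from 5.41 to 5.59 on E2f TKO, 5.50 to 5.63 on Myc KO, 5.63 to 5.84 on QKO and 5.38 to 5.73 on control arrays. The mean of the smooth muscle and fibroblast markers ranged from 5.83 to 6.42 on E2f TKO, 5.94 to 6.47 on Myc KO, 6.07 to 6.23 on QKO and 5.77 to 6.29 on control arrays. By these list means, QKO arrays were above most control arrays in endothelial markers and within the control range in muscle and fibroblast markers. Single genes could differ from their list mean. Vim, a muscle and fibroblast marker that rose in QKO, was higher on every QKO array than on every control array (0.60, limma adjusted p = 0.00501). The part of other cells in the members' differences was not tested.

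Across the 18 arrays most members moved with their own mean, each gene centred first. The correlation with that mean had a median of 0.797 over the 76 members and exceeded 0.5 in 63, and it was below 0 in Mrps36 (-0.41), Mrpl14 (-0.29) and Mrpl27 (-0.21). The genes outside the name rule most like the mean were Eif1ax (0.965), Mmachc (0.961), Dpy30 (0.960), Chchd1 (0.957) and Ecsit (0.956). Of these, Chchd1 is itself a subunit of the mitochondrial ribosome, 1 of those measured under other names. The share of all genes that exceeded 0.5 was not computed, so the count of 63 has no background beside it. These are descriptions over arrays that share their genotypes and their scaling, and each member is part of the mean it was set against.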

How the data were processed

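Crypt RNA was biotin-labelled for expression arrays, per the labels' protocols. The authors deposited 1 value per probe set and array on a log2 scale, which was read from the values (2.29 to 14.81). How the arrays were normalized is not given in the sources used here, nor is the probe summary. Values were used as deposited, since array medians (6.14 to 6.26, highest in Myc KO and QKO) differed by less than 0.2, and 0 columns belonged to no sample. Pairs of arrays correlated at 0.973 to 0.996.

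Of 45101 probe sets, 34945 have 1 symbol in the platform annotation, 932 several, 9160 none, and 64 are controls. Each of the 18193 genes was read from its probe set with the highest mean. The test was limma's moderated fit (version 3.58.1, R 4.3.3) with 4 group means, two-sided, Benjamini-Hochberg over all genes, adjusted p under 0.05. Figures used matplotlib 3.10.9. The code was tested on simulated data. Promoters and neighbours come from RefSeq tables of GRCm38.p6.

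Members and lists were chosen with earlier results of these data known. Genes named are the 10 lowest and 5 highest past the test in the comparisons with control and in QKO against E2f TKO, the 3 lowest and 3 highest past it in the others, the 3 highest and 3 lowest means, the 6 smallest Myc KO differences, probe sets with opposite calls, class exceptions of 5 or fewer, and up to 4 of each list. Mrpl2, Mrpl20 and Mrpl37 are named for their E-box, and Mrpl16 and Mrpl38 after their values were seen. Other settings were quantile normalization, centring, filters and choices of probe sets, 2 groups alone, a replicate block, a trended robust eBayes, array weights, an Xist covariate, and arrays left out.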

Additional observations from a re-analysis of the deposited data

Results flagged for a closer look

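The 37 named members and the mean of all members gave 152 groups of arrays, and 6 held 1 array far from the others of its group. Chance alone would give about 1 such group in 20, or 7.6 of these, if the groups were independent. The members share their arrays and mostly move together, so that number cannot be set against the 6. E2f TKO 1 was the low array in 4 of them. Mrpl19 had 9.61 there, against 10.14 to 10.35 on the other E2f TKO arrays. Mrpl42 had 11.49, against 12.08 to 12.29. Mrps22 had 10.05, against 10.65 to 10.81, and Mrps5 had 9.30, against 9.84 to 9.98. E2f TKO 1 is also the array with the highest enterocyte and T cell marker means. Mrpl54 had 9.78 on E2f TKO 3, above 9.64 to 9.68 on the others, and Mrpl39 had 11.38 on control 4, above 11.31 on the others. The cause was not tested.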

How the results depend on the processing

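Members passing in QKO against control stayed within 1.5 times the count of 31 in the 30 other settings, and 25 to 36 with each array left out. The interaction had 0 in the settings run, where the fit of 2 groups alone does not apply. The other counts moved. E2f TKO against control (4) gave 1 with probe sets averaged per gene, 0 with the 2 groups alone and 10 without E2f TKO 2 and 5, and 0 to 5 with each array left out. Myc KO against control (12) gave 6 with quantile normalization, 28 with arrays centred on their medians, 25 with the 2 groups alone, 33 with array weights and 25 with every probe set tested, and 4 to 27 with each array left out. QKO against E2f TKO (20) gave 5 with quantile normalization, 8 with the 2 groups alone, 4 without E2f TKO 2 and 5 and 32 with every probe set tested, and 10 to 36 with each array left out. QKO against Myc KO (4) gave 8 with the 2 groups alone, 9 with array weights, 1 with the Xist covariate and 8 with every probe set tested, and 0 to 8 with each array left out. Myc KO against E2f TKO (13) gave 23 with centring (21 lower, 2 higher), 4 with the 2 groups alone, 33 with array weights, 6 without E2f TKO 2 and 5 and 25 with every probe set tested, and 6 to 36 with each array left out. With quantile normalization it had 7 lower and 4 higher, and the median of QKO against Myc KO was 0.02 in place of -0.02. Mrpl38 in QKO against control turned to 0.11 (limma adjusted p = 0.302) without probe sets ending in _s_at or _x_at. Every probe set tested means more features than genes, and the cause of the other moves was not tested.

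The replicate number as a block gave 19 for Myc KO against control and 20 for Myc KO against E2f TKO, and left the other counts within 1.5 times. The numbers were not shown to pair the samples: over 25 pairs of the same number, deviations correlated at -0.156 to 0.352, and 8 of 18 arrays correlated best with their own number.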
